A study of Mus musculus with 12 samples.

Results

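Chemokine and complement receptors are the proteins by which a mast cell senses and follows chemoattractants. The 7 transcripts described here were *Ccr1*, *Ccr3* and *Cxcr4* (chemokine receptors), *Ccrl2* and *C5ar2* (atypical receptors), and *C5ar1* and *C3ar1* (complement anaphylatoxin receptors). They were selected by symbol from the gene count table, and 7 of 7 were among its 16234 genes. The list had been drawn up with results of these libraries known, most of all from libraries labelled WT and KO. For that reason their values in any comparison that holds WT or KO libraries are given as a description with confidence intervals and without p-values. Where a member is called in such a comparison, the thresholds only sort genes and are no test of that member. P-values are given for the response of libraries labelled HZ, which enters no comparison of WT with KO. They are not independent of the choice, since the stimulus was the same and the fit estimated variation from all 12 libraries.

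The cells were bone marrow-derived mast cells (BMMCs), grown for 4 to 8 weeks from mouse bone marrow with the growth factors IL-3 and SCF (10 ng/ml each). The mice were 6 to 12 weeks old, of both sexes, on a C57BL/6N background, with a conventional *Elk4* knockout, which is not limited to mast cells. ELK4 is an ETS family transcription factor that acts with serum response factor. The 12 RNA-seq libraries formed 6 groups of 2: *Elk4* wild type (WT), heterozygous (HZ) and knockout (KO), each unstimulated or stimulated through the IgE receptor FcϵRI. For stimulation, cells were loaded overnight with 0.5 µg/ml anti-DNP-IgE and then given 100 ng/ml DNP-HSA antigen for 1 h. No source states whether the unstimulated cells were also loaded with IgE, or whether replicates 1 and 2 came from separate mice or cultures, so the errors may be technical. *Elk4* itself had 1995 to 2740 counts in the 4 libraries labelled WT and 1867 to 2613 in the 4 labelled KO, which overlapped. A deletion inside a gene need not lower its whole-gene count, so the genotype names are those of the labels.

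The receptors all span the membrane 7 times. CCR1 and CCR3 couple to inhibitory G proteins and direct cell migration, CCR1 toward ligands such as CCL3, CCL5 and CCL7, and CCR3 toward eotaxins. CXCR4 is the receptor of CXCL12 and holds progenitors in the bone marrow. C5AR1 and C3AR1 bind the complement fragments C5a and C3a and are known for their part in mast cell activation. C5AR2 binds C5a without coupling to G proteins, and CCRL2 binds the chemoattractant chemerin without signalling by the usual route.

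Library totals lay between 29697958 and 35531667 counts, and the biological coefficient of variation between replicates was 4.01%. Levels are given as counts, as CPM (counts scaled to library size with edgeR's TMM factors) and, for comparisons between genes, as FPKM (scaled for gene length and library total, from the deposited table). The 10 mast cell markers listed, *Kit*, *Fcer1a* and *Cpa3* among them, summed to between 46430 and 57120 CPM in every library. Within that sum single markers differed with genotype. In unstimulated KO against WT *Mrgprb1* was called higher (log2 fold change 4.01 ± 0.13, SE) and *Hdc* lower (-2.89 ± 0.0505). In unstimulated HZ against WT *Mrgprb1* (1.83 ± 0.147) and *Mcpt4* (1.49 ± 0.0794) were called higher. The other markers were not called in these comparisons. The neutrophil markers summed to at most 0.269 CPM, and of the macrophage markers *Mrc1* and *Marco* had at most 1 count in any library. Others on the macrophage list were present: *Cd68* had 670 to 1859 counts, *Lyz2* 131 to 432 and *Adgre1* 98 to 209. *Lyz2* was called higher in unstimulated HZ (1.26 ± 0.162) and KO (1.35 ± 0.16) than in WT. *Csf1r* went the other way, with 1 to 23 counts in WT libraries and 0 to 5 in the others. It was called lower in stimulated HZ than in stimulated WT (-4.58 ± 1.43). Unstimulated *Cd68* had 718 and 670 counts in HZ against 1367 and 1291 in WT, without a call. *Cd68* was called higher with stimulation in HZ (1.44 ± 0.0718). The summed macrophage list nevertheless differed with genotype, at 47.4 to 61.1 CPM in WT, 92.2 to 94.4 in HZ and 114 to 130 CPM in KO libraries. Most of that difference lay in *F13a1*, with 18 to 58 counts in WT and 754 to 2217 counts in the other libraries, and its part in the results below was not tested. The lymphocyte and dendritic cell markers summed to at most 0.537 and 0.169 CPM. The basophil list summed to between 465 and 674 CPM, nearly all of it *Cd200r3*, which mast cells also express. Of its other genes *Mcpt8* had 151 to 362 counts and was called higher in stimulated HZ and KO than in stimulated WT (log2 fold changes 1.01 ± 0.156 and 0.95 ± 0.158), and *Prss34* had 12 to 56 counts. In bulk samples, fewer cells of a type and less RNA per cell cannot be told apart.

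By FPKM, *Ccr1* and *C3ar1* were the receptors with the highest levels in every group. In unstimulated WT cells the order was *Ccr1* (54.6 ± 0.566 FPKM, SD, n = 2), *C3ar1* (26.4 ± 0.431), *C5ar2* (5.19 ± 0.237), *C5ar1* (3.62 ± 0.513), *Ccrl2* (1.92 ± 0.213), *Ccr3* (0.0991 ± 0.0101) and *Cxcr4* (0.0454 ± 0.0146). No neighbours in that order had overlapping libraries. In stimulated KO cells *Ccrl2* had moved up to the third place, with 27.9 ± 1.39 FPKM, above *C5ar2* with 6.39 ± 0.0208 and *C5ar1* with 3.79 ± 0.294 FPKM. In stimulated HZ cells *Ccrl2* (15.8 ± 0.753 FPKM) also stood above *C5ar2* (4.93 ± 0.33), while *C5ar2* and *C5ar1* (4.22 ± 0.236) lay close together but did not overlap.

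**Figure D1:**
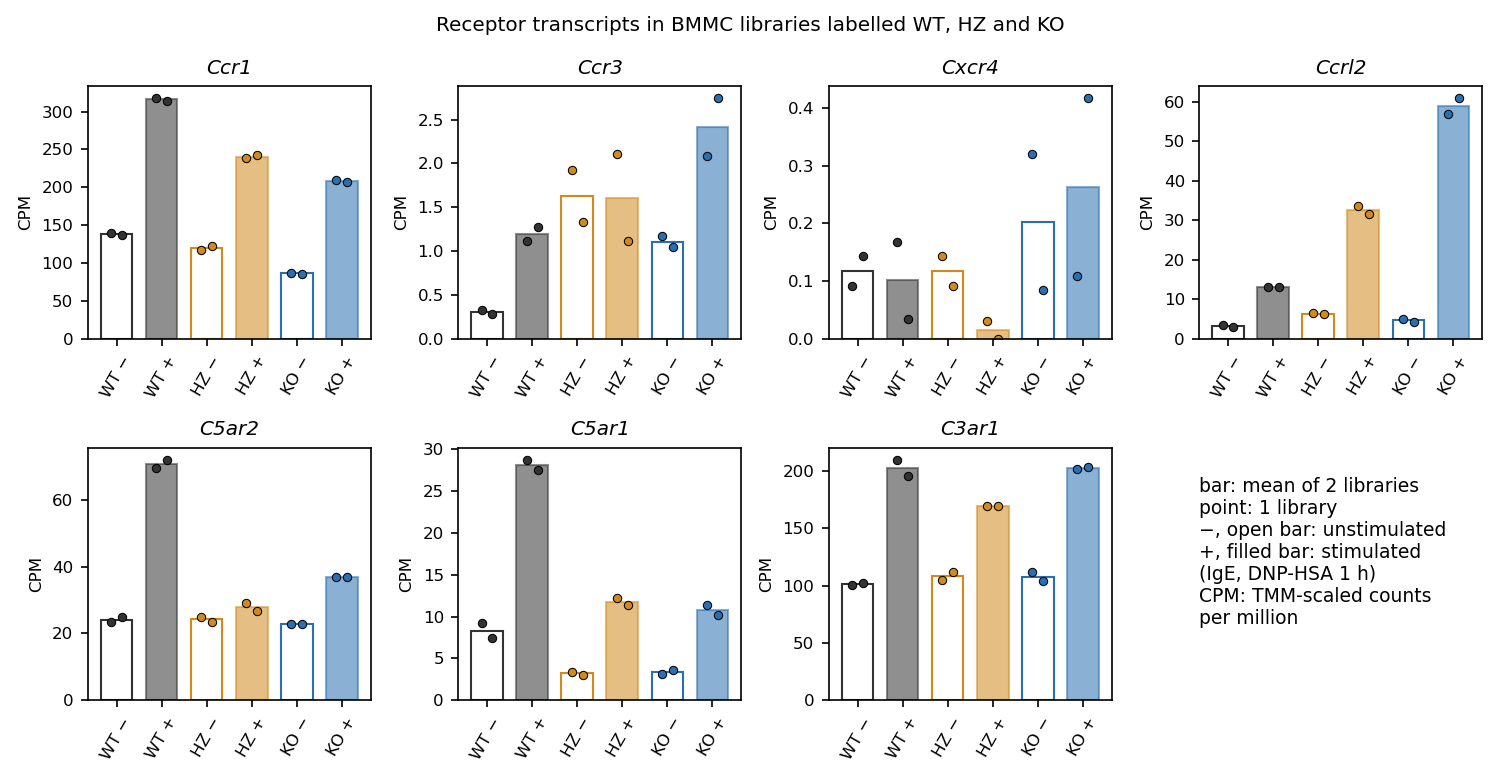
CPM of the 7 receptor transcripts in each library (points) with the group mean (bars), by genotype label and stimulation, each panel with its own axis from 0. *Ccrl2* was highest in stimulated KO libraries at 56.7 and 60.9 CPM, whereas *C5ar2* and *C5ar1* were highest in stimulated WT libraries.

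After stimulation of WT cells, 5 of the 7 receptors met both thresholds (2-fold, with adjusted p below 0.05), all of them higher. Among all 12208 genes tested, 3.71% were called higher in that comparison. In HZ cells 3 of 7 were called higher (7.02% of all genes), and in KO cells 4 of 7 (3.73% of all genes). None was called lower in these comparisons. The members' median log2 fold change was 1.55 (WT), 0.64 (HZ) and 1.12 (KO), beside -0.01, -0.00483 and -0.00675 over all genes. These counts are values that the choice of members used in WT and KO. All 7 passed the filter on low counts, *Cxcr4* only through 1 library with 12 counts in either KO group. When libraries were scaled by their totals alone, the median of all genes after stimulation moved to -0.32 in WT, -0.24 in HZ and -0.295 in KO on the log2 scale, and the calls fell to 4 in WT, 2 in HZ and 2 in KO. *Ccr1* was then called in no genotype, and *Ccr3* was no longer called in KO. The share of all genes called was not computed for that scaling.

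**Figure D2:**
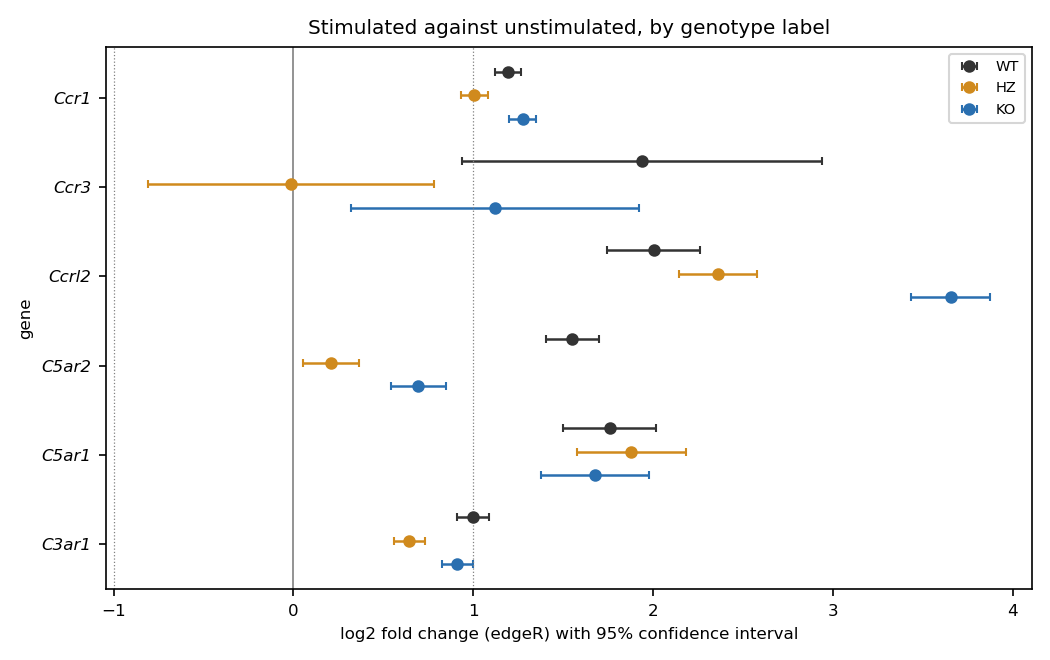
Log2 fold change of stimulated against unstimulated cells for 6 receptors by genotype label, with 95% confidence intervals from edgeR's fit (dotted lines: 2-fold). *Cxcr4* is left out because its counts were 0 to 12. *Ccrl2* lay at 2.00 in WT, 2.36 in HZ and 3.65 in KO, *C5ar2* at 1.55, 0.21 and 0.70.

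The promoters of 5 receptors are shown because neighbouring genes differed in pattern (*C5ar1*, *C5ar2*), because the response of *Ccrl2* was larger in KO than in WT, and because *Ccr3* and *C3ar1* were the members that held an AP-1 match. Each run is the 250 bases before the start site, from RefSeq on GRCm38.p6, whereas the submitters' notes name GRCm39 for the counts. All 7 members had a window. Capitals mark matches on either strand to any of 8 motifs, which were those of AP-1, CRE-binding, ETS, E-box, GATA, NFAT and PU.1 factors and the CArG box of serum response factor. For genes with several windows the most upstream one is shown.
*Ccrl2*, chr9:111057519-111057768, minus strand: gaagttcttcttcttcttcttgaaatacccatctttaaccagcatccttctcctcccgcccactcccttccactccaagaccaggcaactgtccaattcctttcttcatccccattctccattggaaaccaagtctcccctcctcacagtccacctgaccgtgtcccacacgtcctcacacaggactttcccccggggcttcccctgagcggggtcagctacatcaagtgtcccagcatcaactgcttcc
*C5ar1*, chr7:16259339-16259588, minus strand: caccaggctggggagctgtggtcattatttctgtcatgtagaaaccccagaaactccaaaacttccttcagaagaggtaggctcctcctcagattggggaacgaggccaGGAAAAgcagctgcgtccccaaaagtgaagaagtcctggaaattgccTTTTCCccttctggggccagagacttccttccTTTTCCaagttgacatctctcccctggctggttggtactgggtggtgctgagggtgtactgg
*C5ar2*, chr7:16244155-16244404, minus strand: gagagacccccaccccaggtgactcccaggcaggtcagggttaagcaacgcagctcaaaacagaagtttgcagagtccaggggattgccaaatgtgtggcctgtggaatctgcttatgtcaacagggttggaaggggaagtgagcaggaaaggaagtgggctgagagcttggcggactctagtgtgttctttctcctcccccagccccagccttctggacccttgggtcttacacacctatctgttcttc
*Ccr3*, chr9:124021721-124021970, plus strand: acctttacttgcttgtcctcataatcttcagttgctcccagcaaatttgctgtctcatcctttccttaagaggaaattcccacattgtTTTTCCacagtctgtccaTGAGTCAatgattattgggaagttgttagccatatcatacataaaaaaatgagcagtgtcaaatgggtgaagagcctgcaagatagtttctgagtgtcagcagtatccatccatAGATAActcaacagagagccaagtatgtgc
*C3ar1*, chr6:122856158-122856407, minus strand: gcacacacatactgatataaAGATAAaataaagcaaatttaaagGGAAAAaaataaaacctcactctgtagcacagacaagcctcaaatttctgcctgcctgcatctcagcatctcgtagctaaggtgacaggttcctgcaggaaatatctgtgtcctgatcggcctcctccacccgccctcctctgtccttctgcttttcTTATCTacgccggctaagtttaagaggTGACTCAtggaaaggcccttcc

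None of the windows of the 7 members held the ETS letters CCGGAAG, which occur in 6.91% of the 32851 promoter windows of that length. The CRE letters TGACGTCA (1.55% of all windows) and the CArG box (1.47%) were likewise in no member window. The same held for the E-box letters CACGTG (6.02%). The AP-1 letters TGANTCA occur in 6.75% of all windows and stood 144 bases before the start of *Ccr3* and 22 bases before that of *C3ar1*. The NFAT letters GGAAAA occur in 20.4% of all windows and were found 3 times in *C5ar1* and 1 time each in *Ccr3* and *C3ar1*. The GATA letters AGATAA (9.99% of all windows) were found in *Ccr3* and *C3ar1* and in the 2 downstream windows of *Ccrl2*. Those *Ccrl2* windows overlap, and their match is the same site. The PU.1 letters GAGGAAG (10.6%) were found in the second window of *C5ar2*. *Ccr1*, *Cxcr4* and the windows of *Ccrl2* and *C5ar2* shown held no match.

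*Ccr1* (NCBI Gene 12768), the receptor with the highest level, had 4621 and 4781 counts in unstimulated WT libraries and 9445 and 9359 after stimulation. In HZ libraries it had 4084 and 4017 counts before and 7822 and 7172 after stimulation. In KO libraries it had 3274 and 3018 counts before and 5828 and 5969 after. Stimulated libraries were above unstimulated ones in each genotype, and the genotypes were ordered WT, HZ, KO in both states with no overlap in CPM. The log2 fold change with stimulation was 1.195 ± 0.0361 (SE) in WT, 1.01 ± 0.0367 in HZ and 1.27 ± 0.0378 in KO. The HZ rise passed edgeR's quasi-likelihood test (adjusted p = 4.68e-28), and at 2.01-fold it lay just above the 2-fold threshold. It lay just below that threshold without HZ unstimulated replicate 1 (log2 fold change 0.9824) and without HZ stimulated replicate 2 (0.9958). By library totals alone the log2 fold change was 0.7748 in HZ, 0.8868 in WT and 0.985 in KO, under the threshold in each.

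Against WT, *Ccr1* in unstimulated cells was lower in KO by a log2 fold change of -0.68 (95% interval -0.76 to -0.60) and in HZ by -0.21 (-0.28 to -0.13). In stimulated cells the values were -0.60 (-0.67 to -0.53) and -0.39 (-0.47 to -0.32). The KO difference was therefore close in size before and after stimulation, and the difference of the responses, KO minus WT, was 0.08 (-0.03 to 0.18). The near copy *Ccr1l1*, the next gene along chromosome 9, had 41 to 82 counts in every library. How reads that match both genes were treated is not given in the sources used here.

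*Ccr3* (NCBI Gene 12771), the eotaxin receptor best known from eosinophils, was a low-count gene with a different pattern. It had 11 and 10 counts in unstimulated WT libraries and 33 and 38 after stimulation. HZ libraries had 67 and 44 counts unstimulated and 69 and 33 stimulated. KO libraries had 44 and 37 counts unstimulated and 58 and 79 stimulated. Unstimulated WT libraries were below all the others, and in HZ the stimulated libraries overlapped with the unstimulated ones.

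The log2 fold change of *Ccr3* with stimulation was 1.94 (95% interval 0.94 to 2.94) in WT, 1.12 (0.32 to 1.92) in KO and -0.01 (-0.81 to 0.78) in HZ, where edgeR gave an adjusted p of 0.978. Without stimulation it was higher than in WT by 2.39 in HZ (1.43 to 3.36) and by 1.83 in KO (0.84 to 2.82). The KO response no longer passed both thresholds without KO stimulated replicate 2, KO unstimulated replicate 1 or KO unstimulated replicate 2, where the log2 fold change was 0.91, 1.21 and 1.04. Of 3 eosinophil markers in the table, *Prg2* had at most 4 counts, *Siglecf* 3 to 106 and *Il5ra* 45 to 169. Their summed level was 5.04 to 6.40 CPM in WT libraries and 2.56 to 4.37 CPM in the others. *Siglecf*, which mast cells can also express, rose with stimulation by 1.87 ± 0.421 in WT, 1.49 ± 0.445 in HZ and 4.21 ± 0.579 in KO on the log2 scale, while *Il5ra* fell in HZ (-1.08 ± 0.278). *Il5ra* counts were also lower after stimulation in WT (150 and 169 to 84 and 66) and KO (90 and 124 to 50 and 45), without a call. The basophil marker *Prss34* had 14 and 17 counts in unstimulated WT libraries, against 56 and 34 in HZ and 44 and 27 in KO. Among the unstimulated groups WT was thus lowest, as it was for *Ccr3*. *Siglecf* went the other way in KO, where it was called lower than in WT without stimulation (-2.92 ± 0.627). Its unstimulated HZ libraries, with 15 and 30 counts, overlapped with those of WT, with 38 and 20. Unstimulated *Il5ra* counts were highest in WT, with 112 and 114 in HZ. With stimulation *Prss34* fell in HZ to 12 and 12 counts (-1.77 ± 0.548), whereas *Ccr3* did not change there. The part of such cells in the *Ccr3* values was not tested.

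*Cxcr4* (NCBI Gene 12767) was at the limit of detection. Unstimulated WT libraries had 3 and 5 counts and stimulated ones 5 and 1. HZ libraries had 5 and 3 counts unstimulated and 1 and 0 stimulated, and KO libraries 12 and 3 unstimulated and 3 and 12 stimulated. The stimulated HZ libraries were the lowest, together with stimulated WT replicate 2, and the other groups overlapped. The HZ response was not called (adjusted p = 0.168 in edgeR). The counts lay too close to 0 for a fold to be given.

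*Ccrl2* (NCBI Gene 54199) had the largest increase with stimulation among the members in HZ and KO. In WT its log2 fold change of 2.00 ± 0.128 and that of *Ccr3*, 1.94 ± 0.497, could not be ranked. WT libraries had 117 and 105 counts unstimulated and 391 and 387 stimulated. HZ libraries had 222 and 208 counts unstimulated and 1104 and 936 stimulated. KO libraries had 190 and 151 counts unstimulated and 1578 and 1752 stimulated. Stimulated libraries stood above unstimulated libraries in each genotype, and the stimulated libraries were ordered WT, HZ, KO with no overlap.

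With stimulation *Ccrl2* was 4.01-fold higher in WT, 5.14-fold in HZ and 12.6-fold in KO. The HZ rise had a log2 fold change of 2.36 ± 0.107 and an adjusted p of 2.94e-24 (edgeR). The response in KO exceeded that in WT by 1.65 on the log2 scale (95% interval 1.29 to 2.01), and that in HZ exceeded WT by 0.36 (0.01 to 0.71). Before stimulation *Ccrl2* was already higher than in WT, by 0.52 in KO (0.23 to 0.81) and by 0.96 in HZ (0.68 to 1.24). After stimulation the differences from WT were 2.17 in KO (1.97 to 2.37) and 1.32 in HZ (1.12 to 1.52). Unstimulated KO lay below unstimulated HZ by -0.44 (-0.70 to -0.18), whereas stimulated KO lay above stimulated HZ by 0.85 (0.67 to 1.03).

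The 3 genes before *Ccrl2* in the order of chromosome 9 that are in the table, *Ltf*, *Lrrc2* and *Als2cl*, had at most 19 counts in any library. On the other side *Lrrfip2* had a log2 fold change of 0.45 with stimulation in KO. *Epm2aip1*, also on that side, had 2233 to 10308 counts and was called higher with stimulation in KO (2.10) but not in WT (0.38), and higher in stimulated KO than in stimulated WT (2.05).

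*C5ar2* (NCBI Gene 319430) had similar levels in unstimulated cells of all genotypes and separated after stimulation. The unstimulated libraries had 776 and 869 counts in WT, against 868 and 768 in HZ and 851 and 811 in KO, and the ranges of these counts overlapped. Stimulated WT libraries had 2060 and 2145 counts, stimulated HZ libraries 954 and 787, and stimulated KO libraries 1028 and 1059. In CPM the stimulated groups were ordered HZ, KO, WT, with no overlap.

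Without stimulation *C5ar2* differed from WT by -0.08 in KO (95% interval -0.24 to 0.07) and by 0.00063 in HZ (-0.16 to 0.16). With stimulation it was 2.93-fold higher in WT and 1.62-fold higher in KO. In HZ it was 1.15-fold higher, with a log2 fold change of 0.21 ± 0.0772 and an adjusted p of 0.0176 in edgeR's test. That HZ value depended on the scaling, and it was -0.02 when libraries were scaled by their totals alone. Its adjusted p was 0.14 without HZ unstimulated replicate 2 and 0.203 without HZ stimulated replicate 1. The response differed from that of WT by -0.86 in KO (-1.07 to -0.64) and by -1.34 in HZ (-1.56 to -1.13).

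*C5ar1* (NCBI Gene 12273), the signalling receptor of C5a and the next gene to *C5ar2* on chromosome 7, differed with genotype already before stimulation. Of the motifs searched, its promoter window held the NFAT letters, and the window of *C5ar2* shown held none. It had 304 and 261 counts in unstimulated WT libraries, 118 and 99 in HZ and 119 and 127 in KO. After stimulation it had 855 and 818 counts in WT, against 401 and 336 in HZ and 317 and 294 in KO. WT stood above HZ and KO in both states, and HZ and KO overlapped in CPM both before and after stimulation.

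The difference in *C5ar1* from WT was -1.30 in KO (95% interval -1.60 to -0.99) and -1.37 in HZ (-1.69 to -1.06) without stimulation, and -1.38 (-1.64 to -1.12) and -1.25 (-1.51 to -1.001) with it. The response itself was similar in size: 3.38-fold in WT, 3.68-fold in HZ and 3.20-fold in KO. The HZ rise passed the test at a log2 fold change of 1.88 ± 0.151 (adjusted p = 3.39e-15, edgeR). The response in KO differed from WT by -0.08 (-0.48 to 0.32) and that in HZ by 0.12 (-0.28 to 0.52). These intervals leave room for differences of up to about 0.5 on the log2 scale.

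**Figure D3:**
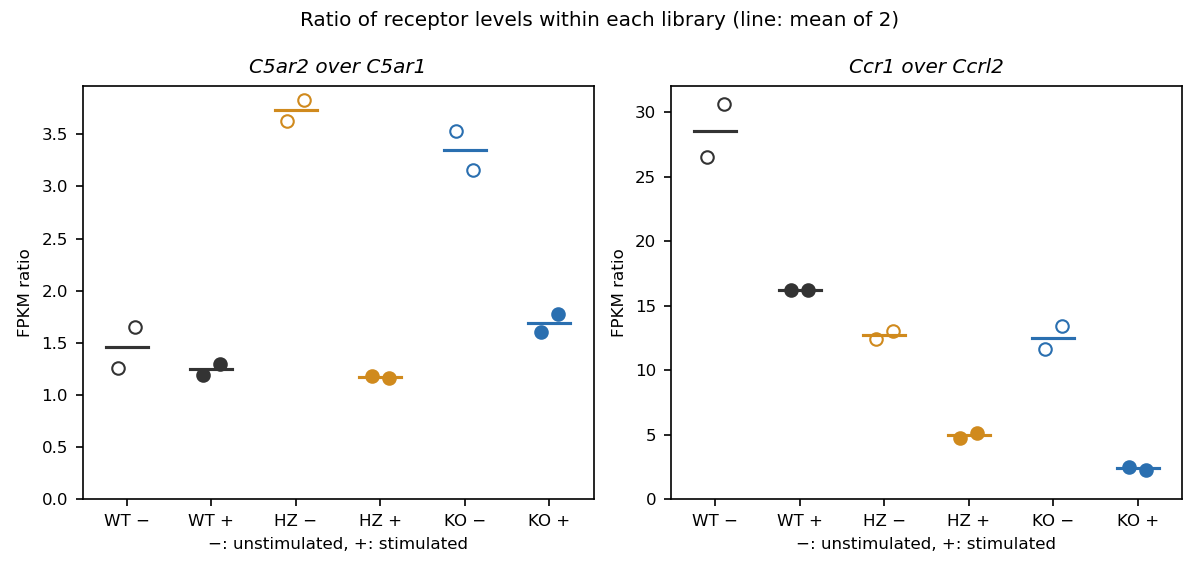
Ratio of FPKM levels within each library (points; line, mean of 2 libraries) for *C5ar2* over *C5ar1* and for *Ccr1* over *Ccrl2*, both axes linear from 0. The *C5ar2* to *C5ar1* ratio was 3.16 to 3.83 in unstimulated HZ and KO libraries and 1.16 to 1.78 in all others.

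Read as a ratio within a library, *C5ar2* exceeded *C5ar1* in all 12 libraries by FPKM. In WT the ratio was 1.26 and 1.65 without and 1.19 and 1.30 with stimulation. In HZ it went from 3.63 and 3.83 to 1.18 and 1.16, and in KO from 3.53 and 3.16 to 1.60 and 1.78. In unstimulated HZ and KO cells the non-G-protein-coupled receptor was thus the more abundant transcript by more than 3-fold. The ratio of *Ccr1* to *Ccrl2* ran from 26.5 and 30.6 in unstimulated WT to 16.2 in both stimulated WT libraries. In HZ it went from 12.4 and 13 to 4.76 and 5.15, and in KO from 11.6 and 13.4 to 2.48 and 2.29. A ratio within a library does not depend on how libraries are scaled.

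*Dhx34* and *Ccdc9*, the genes on either side of the *C5ar2* and *C5ar1* pair, had log2 fold changes of 0.00241 and 0.25 with stimulation in WT. *Bbc3*, one gene further, had -1.57 in WT and -2.55 in KO and was called lower in both. *Dhx34* and *Ccdc9* were called neither with stimulation in WT or KO nor between KO and WT in either state.

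*C3ar1* (NCBI Gene 12267), the C3a receptor, varied least with genotype among the 6 members other than *Cxcr4*. It had 3333 and 3581 counts in unstimulated WT libraries, 3626 and 3700 in HZ and 4192 and 3671 in KO. After stimulation it had 6236 and 5831 counts in WT, against 5550 and 5007 in HZ and 5614 and 5852 in KO. Stimulated libraries were above unstimulated libraries in each genotype. The log2 fold change was 0.9992 ± 0.0431 in WT, or 1.999-fold, just under the 2-fold threshold, 0.64 ± 0.0432 in HZ (adjusted p = 6.85e-18, edgeR) and 0.91 ± 0.0428 in KO. KO differed from WT by 0.09 without stimulation (95% interval -0.00344 to 0.17) and by -0.00212 with it (-0.09 to 0.08). Stimulated HZ lay below stimulated WT by -0.26 (-0.35 to -0.18), and the HZ response was smaller by -0.35 (-0.48 to -0.23).

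**Figure D4:**
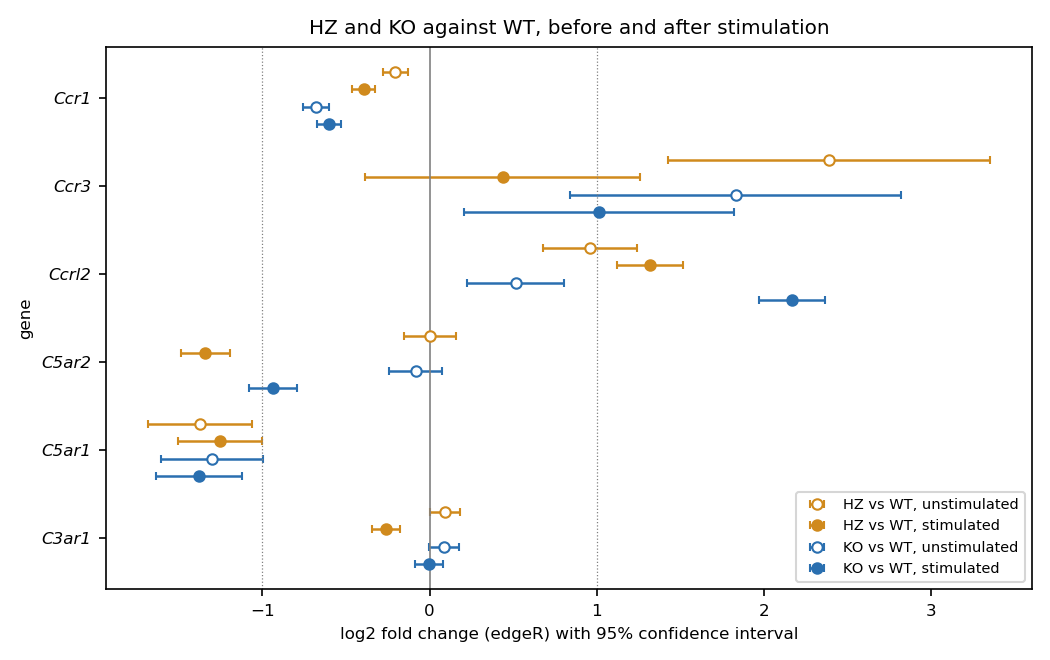
Log2 fold change of HZ and KO against WT for 6 receptors, without (open) and with (filled) stimulation, with 95% confidence intervals from edgeR's fit (dotted lines: 2-fold). *C5ar1* lay between -1.38 and -1.25 in all 4 comparisons, *C5ar2* near 0 without and at -0.94 and -1.34 with stimulation, and *Ccrl2* above 0 in all 4.

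Counted over the 7 receptors, the genotype comparisons of unstimulated cells at 2-fold gave 1 higher (*Ccr3*; 2.64% of all genes were higher) and 1 lower (*C5ar1*; 4.87%) in KO against WT. HZ against WT gave the same pair, *Ccr3* higher (3.83% of all genes) and *C5ar1* lower (5.32%). None was called in KO against HZ without stimulation. At the study's thresholds for stimulated cells, 1.5-fold upward or 0.66-fold downward, KO against WT gave 2 higher, *Ccrl2* and *Ccr3* (5.44% of all genes), and 3 lower, *Ccr1*, *C5ar2* and *C5ar1* (7.22%). Without WT stimulated replicate 1, or without KO stimulated replicate 2, *Ccr1* and *Ccr3* were no longer called and 3 of 7 remained. HZ against WT with stimulation gave *Ccrl2* higher (3.56% of all genes) and *C5ar2* and *C5ar1* lower (4.33%). In KO against HZ with stimulation *Ccrl2* was called higher (1.81% of all genes). *Cxcr4* had 1 and 0 counts in stimulated HZ and 3 and 12 in stimulated KO. That is too few for any call of it to be read, also with a library left out.

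Differences of the response itself, fitted as interactions, passed an adjusted p below 0.05 in KO against WT for *Ccrl2* (higher, 5.44% of all genes) and *C5ar2* (lower, 3.83%). In HZ against WT they did so for *Ccr1*, *Ccr3*, *C5ar2* and *C3ar1*, all lower, where 18.6% of all genes were lower. By library totals alone 3 were lower in HZ (*Ccr3*, *C5ar2* and *C3ar1*) and *Ccrl2* was called higher (0.44 ± 0.175), while *Ccr1* moved from -0.19 to -0.11 and was not called. These comparisons share their WT libraries, so the HZ and KO values are not independent of each other. The members were chosen with WT and KO results known, so these calls are a description and no test.

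The genes whose log2 CPM across the 12 libraries was most like each receptor were, for *Ccr1*, *Tnfsf8* (Pearson r = 0.9965), *Efnb2* and *Cpeb2*. For *Ccrl2* they were *Slc25a30* (0.9944), *Rnf19b* (0.9928) and *Dnah12* (0.979), and for *C5ar1* *Mab21l1* (0.9938), *Hs3st3b1* and *Noct*. For *C5ar2* they were *Aftph* (0.961), *Rnf19a* and *Rbbp6*, and for *Ccr3* *Nxpe3* (0.9526), *Ufm1* and *Bzw2*. Those of *C3ar1* included *Cltc* (0.9915) and *Plekho2*. The candidates were 10775 genes with a mean of at least 1 CPM, and the 12 points share 6 group means. *Cxcr4* had too few counts for its nearest genes to be read. Among the members, r was 0.852 between *C5ar1* and *C5ar2*, 0.937 between *Ccr1* and *C5ar1*, and 0.493 between *Ccrl2* and *C5ar1*.

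Of 22 other chemokine receptors listed, 16 were in the table and 5 could be tested. The most abundant was *Cx3cr1*, the fractalkine receptor, with 3922 and 4248 counts in unstimulated WT, against 2194 and 2026 in HZ and 1861 and 1752 in KO. It was lower in KO than in WT without stimulation (log2 fold change -1.28 ± 0.054) and with it (-1.12 ± 0.0588). *Ccr2*, beside *Ccr3* on chromosome 9, had 5 to 100 counts and fell with stimulation in HZ (-2.55 ± 0.505). Its values in WT (-1.13) and KO (-1.07) had the same direction and were not called. With stimulation 0 of the 5 were called higher in any genotype, which at 3.71% to 7.02% of all genes is near the background.

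Among the 19 chemokine genes tested, 9 rose with stimulation in WT (3.71% of all genes), 10 in HZ (7.02%) and 9 in KO (3.73%). In HZ 3 fell, *Ccl24*, *Cxcl16* and *Cx3cl1* (7.28% of all genes). Those that rose include ligands of CCR1: *Ccl3* went from 3003 and 3184 to 93761 and 97183 counts in WT and from 544 and 515 to 45930 and 47364 in KO, and *Ccl7* from 4605 and 4577 to 92993 and 92910 in WT. *Ccl3* was lower in KO than in WT in both states (log2 fold change -2.65 ± 0.0406 and -0.96 ± 0.0257), as *Ccr1* was by smaller amounts. *Ccl7* was lower in KO without stimulation only, and not by enough to be called. KO libraries had 3124 and 3155 *Ccl7* counts unstimulated and 96654 and 103366 stimulated. Of the 19, 4 were called higher and 2 lower in unstimulated KO against WT (2.64% and 4.87% of all genes). With stimulation 5 were higher and 3 lower (5.44% and 7.22%), and *Ccl9* was higher in both states. CCL7 is also known to bind CCR3. Several other ligands had few counts: *Ccl11* had at most 1 count, *Ccl24* at most 24, *Cxcl12* at most 11, and *Rarres2*, which encodes chemerin, at most 24. Transcripts of the complement proteins C3 and C5 (*Hc*) had at most 4 and 10 counts.

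Among 18 complement and other chemoattractant receptors and their relatives tested, 1 was called higher and 2 lower with stimulation in WT. For HZ these numbers were 2 and 6, and for KO 1 and 2. Of all genes 3.06%, 7.28% and 2.88% were called lower in WT, HZ and KO, and the counts of higher genes lay near the shares of all genes called higher. By library totals alone 4, 8 and 3 were lower. *S1pr3*, a receptor for sphingosine 1-phosphate, rose by 2.85 ± 0.208 in WT, 2.12 ± 0.205 in HZ and 2.24 ± 0.196 in KO on the log2 scale. *Ptafr*, the receptor for platelet-activating factor, fell in each genotype (-1.89 ± 0.23, -3.02 ± 0.214 and -2.52 ± 0.22). *Ltb4r1*, the leukotriene B4 receptor, was lower in KO than in WT without (-1.66 ± 0.166) and with stimulation (-2.10 ± 0.181), a direction shared with *C5ar1*.

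Of 32 tested genes that carry or limit the signal of such receptors, 4 rose in each genotype: *Rgs16*, *Rgs1* and *Rgs2*, which encode proteins that switch off G protein signalling, and *Gnai1*, an inhibitory G protein subunit. Of all genes 3.71%, 7.02% and 3.73% were called higher in WT, HZ and KO. *Prex1*, which encodes an activator of the GTPase RAC, was the gene called lower in HZ (-1.57 ± 0.463). *Rgs1* rose by 2.51 ± 0.0288 in WT, 3.53 ± 0.0305 in HZ and 3.22 ± 0.03 in KO. *Rgs16* was lower in stimulated KO than stimulated WT (-1.70 ± 0.0826), and *Rgs2* was higher (1.54 ± 0.029). *Gnaq*, which encodes a G protein subunit that activates phospholipase C, was lower in KO than in WT without (-1.95 ± 0.165) and with stimulation (-1.92 ± 0.167). By library totals, 3 rather than 4 of these genes were called higher in KO.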

How the data were processed

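The authors deposited raw read counts per gene and FPKM values, normalized for gene length and library total, for the same 16234 genes in 12 libraries. Per the labels, libraries were made with the VAHTS Universal V6 kit, and the submitters' processing notes name fastp, HISAT2, HTSeq and the build GRCm39. Versions, the annotation and strandedness are not given in the sources used here.

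Counts were fitted with edgeR 4.0.16 in R 4.3.3: filterByExpr at its defaults (12208 genes), TMM factors (1.08 to 1.12 unstimulated, 0.902 to 0.924 stimulated), quasi-likelihood tests in one model of the 6 groups (6 residual degrees of freedom) and a prior count of 0.125. Adjusted p-values are Benjamini-Hochberg values over all genes tested. Calls needed a 2-fold change (1.5-fold upward or 0.66-fold downward between stimulated genotypes; none for interactions) together with an adjusted p below 0.05. The procedure was tested on simulated counts.

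The members and the gene lists were chosen with earlier results of these data known. The text names all 7 members, at most 4 called genes per list and comparison by size of the change, the 3 most correlated genes and the 3 nearest genes on either side. Some genes that these rules name are not reported here. Marker genes, receptors with few counts and ligands at or near 0 were added after their values were seen. Alternatives were other scalings and filters, DESeq2 1.42.0, limma 3.58.1 on log2(FPKM + 1) and log2(FPKM + 0.1), other thresholds, replicate blocks, a prior count of 2 and leaving out each library. Replicates of a group differed by more than counting noise (chi-square per degree of freedom 2.93 to 5.16), so none was a copy of another.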

Additional observations from a re-analysis of the deposited data

Results flagged for a closer look

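For 2 receptors the response to stimulation differed between libraries labelled KO and WT, by an interaction term at an adjusted p below 0.05 across all genes (edgeR). The difference of the log2 fold changes, KO minus WT, was 1.65 for *Ccrl2*, with 12.6-fold against 4.01-fold induction, and -0.86 (-0.855) for *C5ar2*, with 1.62-fold against 2.93-fold. For 4 receptors the HZ response differed from the WT response in the same way. The difference, HZ minus WT, was -1.34 (-1.343) for *C5ar2*, -1.95 for *Ccr3*, -0.35 for *C3ar1* and -0.19 for *Ccr1*. The *Ccr3* value rests on 10 to 69 counts a library, and it no longer passed without HZ unstimulated replicate 1 (-1.66) or without HZ stimulated replicate 2 (-1.57). Each of the 4 was lower in HZ, as 18.6% of all genes were. With libraries scaled by their totals alone, the *Ccr1* difference was -0.11 and no longer passed, and *Ccrl2* passed as higher in HZ (0.44). The members had been chosen with results of WT and KO libraries known, so these differences are a description. Groups of 2 libraries allow no test for a deviating library.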

How the results depend on the processing

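Counts kept within 1.5 times of the reported counts in 247 of the 272 results compared with an alternative. These were counts of receptors called, together with the number of most correlated genes kept, given below. Scaling by library totals alone left 4 calls in the WT response, 2 in HZ and 2 in KO, and for the difference of the HZ and WT responses gave 1 higher and 3 lower in place of 0 and 4. Without a fold threshold, 5 receptors were called in the HZ response, 4 in KO against WT unstimulated, 4 in HZ against WT unstimulated, 2 in KO against HZ unstimulated, 5 in HZ against WT stimulated and 4 in KO against HZ stimulated. With limma on log2(FPKM + 1), with or without a filter on low values, 3 were called in the WT response, 1 in the KO response, 0 in KO against WT and in HZ against WT unstimulated, and 3 in KO against WT stimulated. With limma on log2(FPKM + 0.1) these were 3, 2, 1 and 1 for the first 4. Fewer receptors entered the filtered limma fits (5 of 7), since *Ccr3* and *Cxcr4* had mean FPKM values below 0.5, and FPKM is scaled by library totals. By log2(FPKM + 1), 9 of the 21 most correlated genes stayed among the 3 nearest to their receptor. For the other changes the cause was not tested. Shares of all genes called were not computed under the alternatives or with a library left out. The counts given for them therefore cannot be set beside a background.

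Leaving out each library in turn gave 5 to 6 calls in the WT response, 2 to 3 in HZ and 3 to 4 in KO. In unstimulated cells it gave 2 in KO against WT, 2 to 3 in HZ against WT and 0 in KO against HZ. In stimulated cells it gave 3 to 5 in KO against WT, 3 in HZ against WT and 1 to 2 in KO against HZ, and for the differences of the responses 2 in KO and 3 to 4 in HZ. The HZ log2 fold change of *C5ar2* was -0.02487 by library totals, -0.02173 by limma on log2(FPKM + 1), with and without the filter, and -0.02568 on log2(FPKM + 0.1). That of *Ccr3* ran from -0.55 to 0.36 with each library left out in turn, at 0.28 without HZ unstimulated replicate 1 and 0.36 without HZ stimulated replicate 2. No called receptor changed direction.

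No pairing by replicate number was detectable: differences between replicates 1 and 2 in unstimulated and stimulated libraries correlated at r = -0.0345 in WT, 0.0811 in HZ and -0.0306 in KO over 9161 genes. Such values cannot tell whether libraries with the same number shared a mouse or culture. With a replicate block across all groups, 5, 3 and 4 receptors were called in the WT, HZ and KO responses, the same numbers as without it, and likewise with a block within genotype. *Ccr3* and *Cxcr4* had the fewest counts of the 7, 0 to 79 a library, which limits what can be said of them.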
